A study of Mus musculus with 4 samples.

Results

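Expression of 9 genes of microglial identity and of the CSF1 receptor axis was examined in brain septal tissue: the ligands Csf1 and Il34, their receptor Csf1r, the surface receptors Cx3cr1, P2ry12 and Trem2, the membrane protein Tmem119, the signalling adaptor Tyrobp and the cytoplasmic protein Aif1. The genes were chosen by name, as markers of resting microglia and members of the CSF1 receptor axis, with earlier results of these data known. All 9 were listed, out of 15409 gene rows. The study compared TCRb-/- mice with wild-type (WT) mice. Without the receptor's beta chain, T cells that carry an alpha-beta receptor do not form, whereas gamma-delta T cells and B cells remain. All groups shared the stress treatment, a daily restraint of 30 min repeated over 3 days, with tissue taken 1.5 h after the final session, so that these data hold no unstressed group. Each genotype was represented by 2 libraries, 1 from experiment 1 (replicate 1) and 1 from experiment 2 (replicate 2), and each library held tissue pooled from 4 to 5 mice. RNA came from a cleared detergent lysate of homogenised tissue. The labels name no age, sex or strain, and a library is a pool, so the spread below is between pools and not between animals.

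Microglia are the resident macrophages of the brain. They depend on signalling through the receptor tyrosine kinase CSF1R, which binds CSF1, made largely by glia, and interleukin 34, which in the forebrain is made mainly by neurons. Resting microglia sense neurons and injury through the fractalkine receptor CX3CR1 and the ADP receptor P2RY12, and sense lipids and debris through TREM2, which signals through the adaptor TYROBP (DAP12). Il34 and Csf1 are thus read-outs of the ligands that feed the receptor, and bulk tissue does not tell which cells made them. The other 7 genes are read-outs of microglia and related macrophages.

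The libraries held between 19988137 and 26210790 reads, which gave the 9 genes between 83 and 1072 reads each. The exact 95% counting interval of a single value reached between 6.03% and 22.2% of the value to either side; it covers counting error only. Trbc2, part of the deleted receptor gene and therefore a check of the labels, had 169 and 86 reads in WT and 0 in each TCRb-/- library (upper limits of 0.122 and 0.150 CPM, the reads of a gene scaled to a common library total). All 19 further markers of homeostatic microglia were listed. None of 11 blood cell genes was, among them the globin genes Hbb-bs and Hba-a1, so their levels are not known. Of 11 border macrophage genes 7 were listed and 3 reached a mean of 1 CPM. Septal markers summed to between 474 and 543 CPM, of which Sst alone gave between 168 and 204 CPM. These similar sums hid changes of single genes in the test between experiments given below. Of 11 tested septal markers, 3 were called higher in experiment 2 (Zic1, Zic4 and Nts) and 1 lower (Slc5a7). Sums of markers of neighbouring regions differed more. The 12 striatal markers summed to 4710 and 1050 CPM in TCRb-/- replicates 1 and 2 and to 4230 and 2570 CPM in WT. The 12 choroid plexus markers summed to 2130 and 6870 CPM in TCRb-/- and to 1290 and 4170 CPM in WT. In such bulk tissue, fewer cells of a type and less RNA per cell cannot be told apart.

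The sequences just before the start of 4 macrophage genes, which mark the same cells, are shown as a description. Whether they bear on any difference given below was not tested. PU.1 (encoded by Spi1) is a lineage factor of microglia that binds purine-rich sequences built around GGAA. Promoters of 5 of the 9 members were examined, taken from the RefSeq promoter table (GRCm38.p6). Those of Csf1r, Il34, Tmem119 and Tyrobp were not examined, so the counts of matches leave them out. The 100 bases upstream of the RefSeq start are given 5′ to 3′ on the gene's strand. The gene coordinates given further below come from GENCODE, and for Cx3cr1, P2ry12 and Aif1 they begin at another base. Positions of matches therefore hold for the RefSeq starts only. Matches to GAGGAA or GGAAGT, searched on both strands, are in capitals. The letters of these motifs can overlap each other in a longer purine run.
Cx3cr1 (chr9:120068297-120068396, minus strand): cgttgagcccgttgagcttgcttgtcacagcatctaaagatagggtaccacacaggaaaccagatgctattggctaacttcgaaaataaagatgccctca
P2ry12 (chr3:59262986-59263085, minus strand): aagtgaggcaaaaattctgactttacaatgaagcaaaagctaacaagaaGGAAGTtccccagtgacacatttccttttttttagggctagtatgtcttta
Trem2 (chr17:48346301-48346400, plus strand): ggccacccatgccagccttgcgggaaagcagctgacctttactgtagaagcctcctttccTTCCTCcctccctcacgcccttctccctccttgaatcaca
Aif1 (chr17:35176053-35176152, minus strand): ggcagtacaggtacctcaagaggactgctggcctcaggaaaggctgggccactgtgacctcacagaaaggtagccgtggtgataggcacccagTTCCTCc

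P2ry12 carried GGAAGT at position -51 from its start, counted with -1 as the last base before the start. Trem2 and Aif1 carried GAGGAA on the opposite strand, where it reads TTCCTC, at positions -40 and -7. Cx3cr1 and the ligand gene Csf1 carried neither in their windows of 300 bases (250 before to 50 after the start). The bare core GGAA was not searched for, and the Cx3cr1 bases shown contain it. Over the same windows of 32851 promoters, GAGGAA was found in 28.3% and GGAAGT in 23.8%, so matches in 2 of 5 and 1 of 5 members are no more than a description of these letters.

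The first question was how strongly each gene was expressed, per length of its transcript. Il34 had the highest mean of the 9, at 19.1 ± 4.79 CPM per kilobase of its longest annotated transcript (mean ± SD over the 4 libraries), followed by Tyrobp at 17.6 ± 1.04. Then came Tmem119 at 8.58 ± 0.892, P2ry12 at 7.10 ± 0.307, Csf1r at 5.99 ± 0.758, Aif1 at 5.77 ± 0.507, Csf1 at 4.86 ± 0.354 and Cx3cr1 at 3.60 ± 0.645 CPM per kilobase. Neighbours in this order overlapped in range over the 4 libraries except Tyrobp against Tmem119 and Csf1 against Cx3cr1. The places of Aif1 and Trem2 depended on the gene model. Over all merged exons Aif1 had 3.30 CPM per kilobase and stood below Csf1 (3.84) and Cx3cr1 (3.59). The longest annotated transcript of Trem2, of 4784 bases, is a retained-intron form, against which the level of Trem2 was 0.933 ± 0.102, below that of Cx3cr1 in all 4 libraries. Against its longest protein-coding transcript, of 1088 bases, the level was 4.10 ± 0.449, and its range then overlapped those of Csf1 and Cx3cr1. The longest transcript of each other member is protein-coding. The adaptor Tyrobp was thus more abundant per length than its partner Trem2 in every library, with a Trem2 to Tyrobp ratio between 0.223 and 0.252 on the protein-coding lengths.

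**Figure D1:**
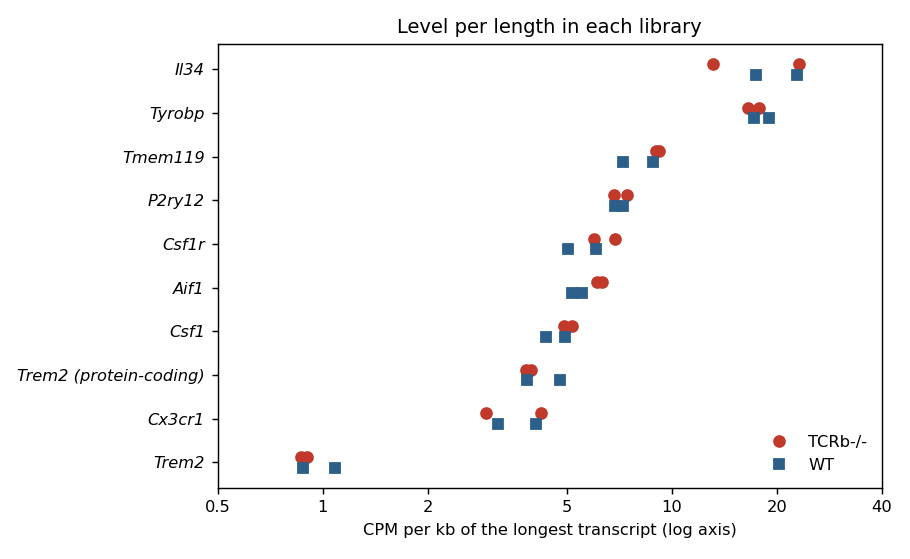
Level of each gene in each library, as CPM per kilobase of the longest annotated transcript on a log axis; red circles are TCRb-/- libraries and blue squares WT libraries, and a second line for Trem2 uses its longest protein-coding transcript. Il34 and Tyrobp lie highest, and Il34 spreads from 13.1 to 23.2 CPM per kilobase while P2ry12 spreads from 6.81 to 7.44.

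The second question was whether loss of the T cell receptor beta chain altered these genes. No difference between TCRb-/- and WT tissue in the 9 genes was past the threshold of the test, and the fitted differences ran from -0.19 (Il34) to 0.21 (Csf1r) on the log2(CPM + 1) scale, which understates the change of low genes. In limma, a linear model that shares an estimate of the spread across 13912 tested genes, 0 of 9 members passed an adjusted p of 0.05, against 0% of all genes (43 genes had an unadjusted p under 0.05, none of them a member). With the experiment as a block, 0 of 9 passed, against 0.0144% of all genes (2 genes), and again 0 members had an unadjusted p under 0.05, against 5.64% of all genes (784). The members' adjusted p was 1 in every case in the first limma fit and between 0.848 and 0.994 with the block. For 1 gene taken alone, exact permutation of 2 libraries against 2 reaches no p below 0.333. The median difference of the 9 genes was 0.011, beside 0.00069 over all genes tested. The individual genes are given in the order ligands, receptor, microglial surface receptors, adaptor and cytoplasmic marker.

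**Figure D2:**
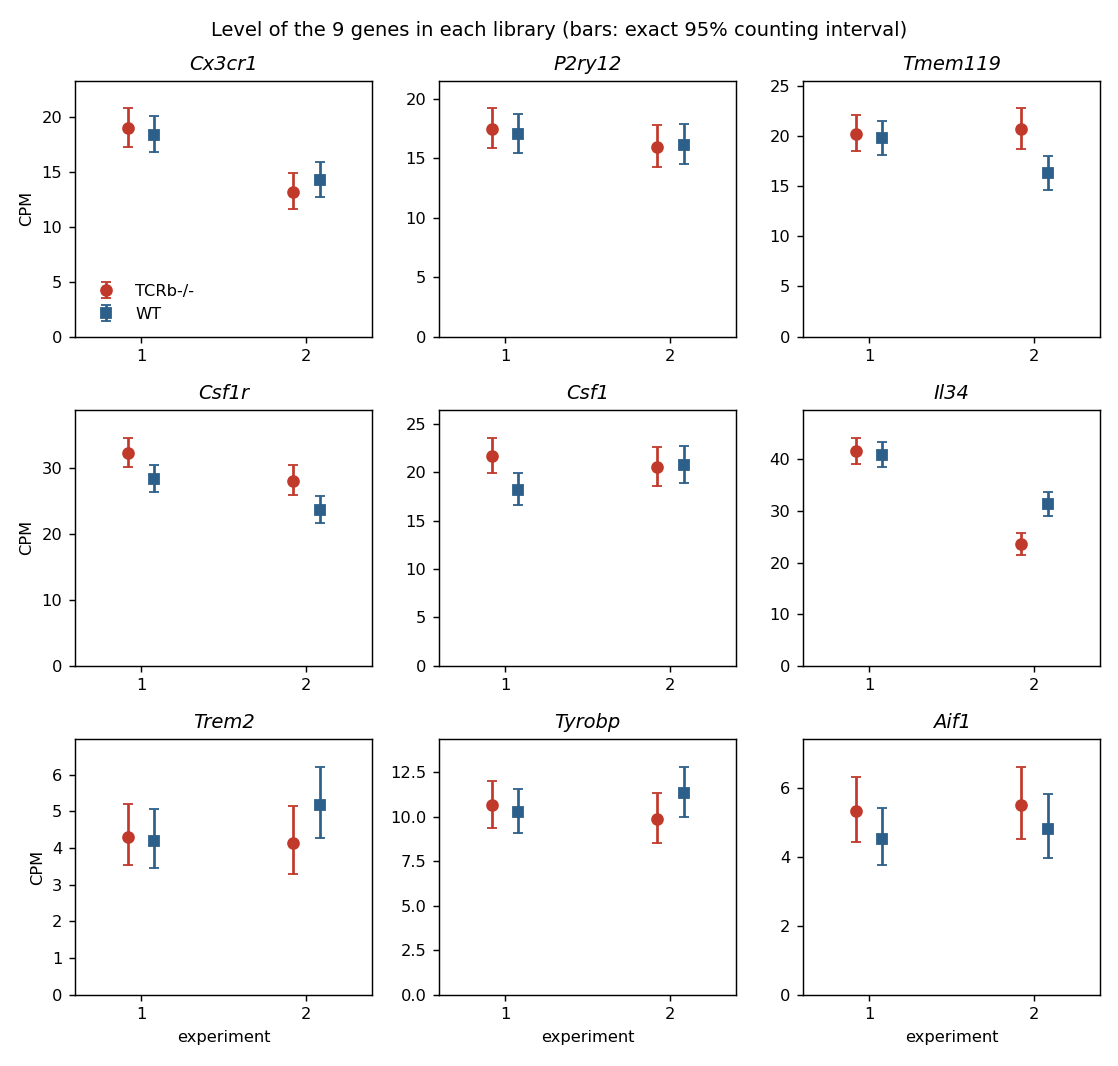
CPM of each gene in each library, by experiment, with exact 95% counting intervals; red circles are TCRb-/- and blue squares WT, and each axis starts at 0. In experiment 1 the genotypes lie close together for most genes, and the lowest Il34 value, 23.5 CPM, is that of the TCRb-/- library of experiment 2.

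Il34 (chromosome 8, 110741829 to 110805924, minus strand, GRCm38, protein-coding), the neuronal ligand of CSF1R, stood at 41.6 (replicate 1) and 23.5 CPM (replicate 2) in TCRb-/- and at 40.9 and 31.3 CPM in WT. Both experiment 1 libraries were high, the WT library of experiment 2 was lower and the TCRb-/- library of experiment 2 was the lowest, so that the genotypes overlapped. The group means were 32.6 ± 12.8 against 36.1 ± 6.78 CPM (SD, n = 2 each). The difference was -0.19 (SE 0.30; 95% interval -0.94 to 0.57), and with the block the interval was -0.46 to 0.08. Csf1 (chromosome 3, 107741048 to 107760469, minus strand, protein-coding), the other ligand, had 21.7 and 20.6 CPM in TCRb-/- and 18.2 and 20.7 CPM in WT. Its lowest library was WT replicate 1, the other 3 lay between 20.6 and 21.7 CPM, and the genotypes overlapped. The difference in Csf1 was 0.12 (SE 0.16; 95% interval with the block -0.15 to 0.38).

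Csf1r (chromosome 18, 61100598 to 61132149, plus strand, protein-coding), the receptor of both ligands, had 32.4 and 28.2 CPM in TCRb-/- and 28.4 and 23.7 CPM in WT. The TCRb-/- library was the higher one in both experiments, but TCRb-/- replicate 2 lay just below WT replicate 1, so the genotypes overlapped. The difference of 0.21 (SE 0.17) had a 95% interval of -0.21 to 0.63, narrowing to -0.01 to 0.43 with the block (adjusted p = 0.848 in limma). With the length trend removed as well, the interval was 0.0033 to 0.44 and left out 0 (unadjusted p = 0.0471, adjusted p = 0.787 in limma). The size of the difference varied with the libraries used: it was 0.08 without WT replicate 2, 0.11 without TCRb-/- replicate 1 and 0.34 without WT replicate 1. Within each experiment the ratio of TCRb-/- to WT reads, scaled by library total, was 1.14 (95% counting interval 1.03 to 1.26) and 1.19 (1.06 to 1.34). The receptor shares 873 exonic bases with Hmgxb3 on the opposite strand, and whether reads were counted by strand is not given in the sources used here. Hmgxb3 had 50.7 and 34.0 CPM in TCRb-/- and 50.0 and 31.5 CPM in WT, and its part in the Csf1r values was not tested.

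Cx3cr1 (chromosome 9, 119901616 to 120069879, minus strand, protein-coding), the fractalkine receptor, had 19.0 and 13.2 CPM in TCRb-/- and 18.4 and 14.3 CPM in WT. Its libraries paired by experiment and not by genotype, with a genotype difference of -0.03 (SE 0.24; 95% interval with the block -0.30 to 0.24). P2ry12 (chromosome 3, 59216272 to 59262871, minus strand, protein-coding), the ADP receptor of resting microglial processes, was the steadiest of the 9, at 17.4 and 16.0 CPM in TCRb-/- and 17.02 and 16.1 CPM in WT. Its coefficient of variation over the 4 libraries was 4.32%, and its genotype difference was 0.01 (SE 0.16; 95% interval with the block -0.25 to 0.27). Tmem119 (chromosome 5, 113793729 to 113800516, minus strand, protein-coding), a membrane protein used to tell microglia from other macrophages, had 20.2 and 20.7 CPM in TCRb-/- and 19.8 and 16.3 CPM in WT. Here 3 libraries lay together and WT replicate 2 was lower, and the genotypes did not overlap. Its difference was 0.18 (SE 0.17; 95% interval with the block -0.10 to 0.45), and the ratio of reads was 1.02 (counting interval 0.903 to 1.16) in experiment 1 and 1.27 (1.10 to 1.47) in experiment 2.

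Trem2 (chromosome 17, 48346401 to 48354147, plus strand, protein-coding), the lipid receptor, had the lowest mean CPM of the 9, with 4.31 and 4.15 CPM in TCRb-/- and 4.20 and 5.19 CPM in WT. Only WT replicate 2 stood apart, and the counting interval of its ratio in experiment 2 (0.596 to 1.07) held 1. The genotype difference of Trem2 was -0.12 (SE 0.20; 95% interval with the block -0.51 to 0.28). Tyrobp (chromosome 7, 30413760 to 30417585, plus strand, protein-coding), the adaptor through which TREM2 signals, followed the same order at a higher level, with 10.6 and 9.86 CPM in TCRb-/- and 10.3 and 11.3 CPM in WT. Its genotype difference was -0.07 (SE 0.17; 95% interval with the block -0.38 to 0.24). Aif1 (chromosome 17, 35170991 to 35176068, minus strand, protein-coding), which encodes the macrophage protein IBA1, had 5.33 and 5.50 CPM in TCRb-/- and 4.54 and 4.83 CPM in WT. Both TCRb-/- libraries lay above both WT libraries, but the counting intervals of the ratios in experiments 1 and 2 (0.909 to 1.52 and 0.866 to 1.50) held 1, and the difference was 0.17 (SE 0.18; 95% interval with the block -0.19 to 0.54).

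Tmem119 and Aif1 were thus the 2 members whose TCRb-/- libraries both lay above both WT libraries, a share to be read against 9.76% of all genes tested, and no member had the opposite arrangement. Tmem119, Csf1r and Aif1 were the 3 members higher in TCRb-/- in both experiments, against 27.0% of all genes. The other 6 members had opposite signs in the 2 experiments, against 48.4% of all genes. In experiment 1 all 9 were higher in the TCRb-/- library, by 0.02 (Il34) to 0.24 (Csf1), against 51.6% of all genes. In experiment 2 the differences spread from -0.40 (Il34) to 0.33 (Tmem119). The counting interval of the ratio of reads left out 1 for 2 members in experiment 1 (Csf1r and Csf1), against 37.7% of all genes, and for 3 in experiment 2 (Csf1r, Tmem119 and Il34, the last at 0.751, 0.667 to 0.845), against 31.6% of all genes, so such intervals were common. Each such ratio compares 2 libraries and not the genotypes.

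**Figure D3:**
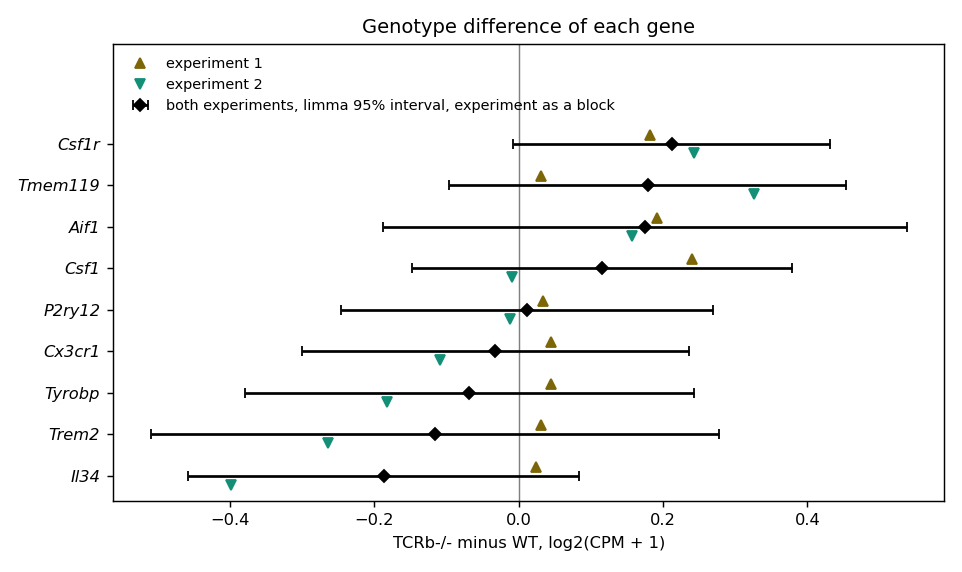
TCRb-/- minus WT on the log2(CPM + 1) scale for each gene; triangles are the differences within experiments 1 and 2, and diamonds with bars are the limma estimate over both experiments with its 95% interval, the experiment being a block. Every interval drawn includes 0, and that of Csf1r, from -0.01 to 0.43, comes closest to leaving it out.

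The third comparison was between the experiments, across both genotypes. It asked how far the members varied for reasons other than genotype. Il34 and Cx3cr1 were lower in experiment 2 in both genotypes. Il34 averaged 41.3 ± 0.502 CPM in experiment 1 and 27.4 ± 5.51 CPM in experiment 2 (SD, n = 2 each), a difference of -0.59 (SE 0.13; adjusted p = 0.0188 in limma). By genotype the fall was -0.80 in TCRb-/- and -0.38 in WT. Cx3cr1 averaged 18.7 ± 0.426 and 13.7 ± 0.785 CPM, a difference of -0.42 (SE 0.11; adjusted p = 0.0331 in limma), with -0.50 in TCRb-/- and -0.34 in WT.

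These 2 of 9 members compare with 14.7% of all genes called lower in experiment 2 and 23.7% called in either direction, so a call between the experiments was common in this series. Both experiment 2 libraries lay below both experiment 1 libraries for 4 members (Il34, Cx3cr1, Csf1r and P2ry12), against 37.2% of all genes. The other 7 members did not pass the threshold in limma. Csf1r differed by -0.22 (SE 0.12; adjusted p = 0.197 in limma), Tmem119 by -0.12 and P2ry12 by -0.10, while Trem2, Aif1, Csf1 and Tyrobp differed by 0.10, 0.06, 0.05 and 0.02. The median of the 9 differences was -0.098, beside -0.030 over all genes tested. Cx3cr1 was thus past the threshold while P2ry12 and Tmem119, markers of the same cells, were not, and the difference between these genes was not itself tested. The Cx3cr1 to P2ry12 ratio of CPM was 1.09 and 1.08 in experiment 1 and 0.824 and 0.886 in experiment 2 (TCRb-/- and WT). Relative to the summed level of the 19 other homeostatic markers, Cx3cr1 stood at 8.59% and 9.18% in experiment 1 and at 5.85% and 6.58% in experiment 2.

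Of the 2 calls, that of Il34 was lost under fewer alternatives. A trend of the values on transcript length, fitted in each library and removed, was added as an alternative after the values were seen. It left Il34 at -0.68 (adjusted p = 0.0211 in limma) and Cx3cr1 at -0.25 (adjusted p = 0.171), which was then no longer past the threshold. Quantile normalization also ended the call of Cx3cr1, at -0.32 (adjusted p = 0.0771 in limma), as did leaving out any 1 library other than WT replicate 2 (adjusted p between 0.101 and 0.130). Il34 lost its call without TCRb-/- replicate 1 (adjusted p = 0.0768 in limma) or without WT replicate 1 (0.0679). Both calls were also lost when limma used 1 spread for genes of all levels, Il34 at an adjusted p of 0.0701 and Cx3cr1 at 0.0551.

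**Figure D4:**
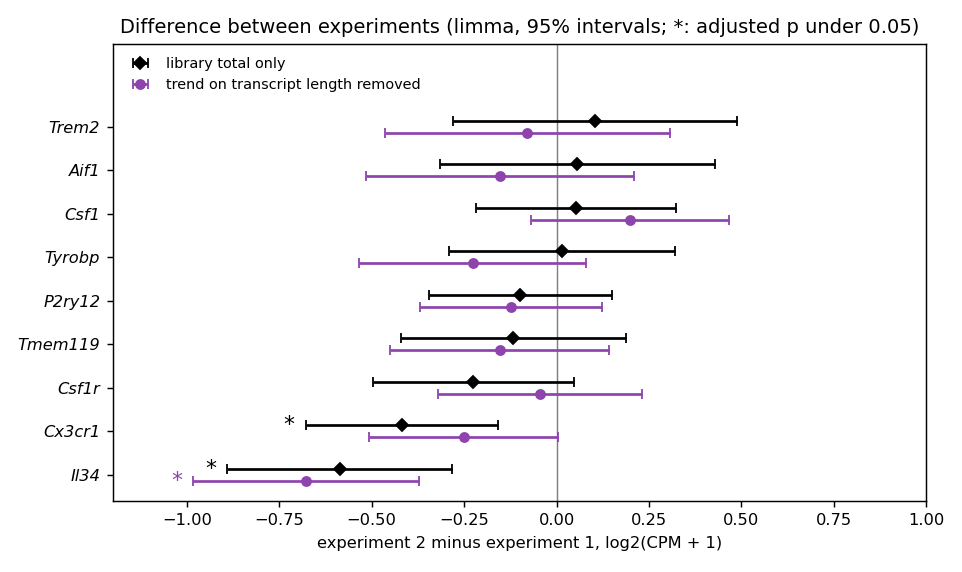
Experiment 2 minus experiment 1 on the log2(CPM + 1) scale, with limma 95% intervals; black diamonds are scaled by library total only, purple circles have the trend on transcript length removed, and asterisks mark an adjusted p under 0.05. Il34 keeps its asterisk at -0.68, while Cx3cr1 moves from -0.42 to -0.25 and loses it.

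Il34 and Cx3cr1 moved alongside the markers of a neighbouring region. All 12 of 12 striatal markers were lower in experiment 2 past the threshold in limma, none of them at 0. Their median was -1.43, beside -0.030 over all genes. The marker lists were chosen with earlier results of these data known. The order of the libraries in the summed striatal list (4710, 4230, 2570 and 1050 CPM) was that of Il34 and of Cx3cr1. Of 8 cortical and hippocampal markers 5 were lower, with summed levels of 251 and 318 CPM in experiment 1 and 104 and 93.1 CPM in experiment 2. Of 12 choroid plexus markers 11 were higher. Neuronal markers summed to between 6470 and 7000 CPM, of which Snap25 alone gave between 3430 and 3830 CPM. Of single neuronal markers, 2 of 8 were higher and 3 of 8 lower past the threshold. The summed homeostatic microglial list had 221 and 200 CPM in experiment 1 and 225 and 217 CPM in experiment 2. The border macrophage list summed to 13.9 and 13.9 CPM in experiment 1 and to 5.85 and 10.5 CPM in experiment 2. The highest mean in it was that of Clec12a, at 7.04 and 1.15 CPM in TCRb-/- and 5.11 and 3.85 CPM in WT. Cd163 also fell, from 3.34 to 0.55 CPM in TCRb-/- and from 4.43 to 2.15 CPM in WT. The fall of the sum was not shared by every gene of the list: Cbr2 was higher in experiment 2 in both genotypes. Mrc1, F13a1, Folr2 and Stab1, all at 1.95 CPM or below, moved in opposite directions in the genotypes. The part of tissue composition in the Il34 and Cx3cr1 differences was not tested.

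**Figure D5:**
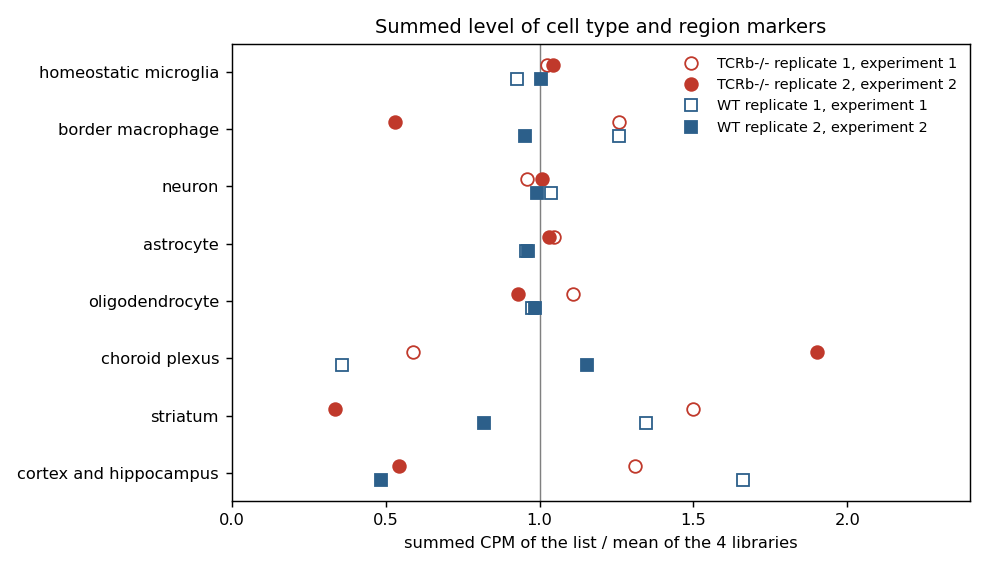
Summed CPM of each marker list in each library, divided by the mean of the 4 libraries; open symbols are experiment 1, filled symbols experiment 2, red circles TCRb-/- and blue squares WT. The homeostatic microglial list lies close to 1 in all 4 libraries, whereas the striatal and choroid plexus lists separate the experiments in opposite directions.

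The balance of the ligands was lower in experiment 2 in both genotypes. The Il34 to Csf1 ratio of CPM was 1.92 and 2.25 in experiment 1 (TCRb-/- and WT) and 1.14 and 1.51 in experiment 2, and per length Il34 exceeded Csf1 by 2.66 to 5.23 times. The ratio was lower in TCRb-/- than in WT in both experiments, with 1 library each; in experiment 1 Csf1 was the higher there (21.7 against 18.2 CPM) while Il34 was close (41.6 against 40.9 CPM). Over the 4 libraries the patterns of Trem2 and Tyrobp were the most alike of any 2 members. Their Euclidean distance was 0.106 between log2(CPM + 1) values less their means, and the least alike were Il34 and Aif1, at 0.763. Tyrobp and Trem2 were also near a flat pattern, at 0.133 and 0.215 from it. Genes outside the members lay closer to each, at 0.0162 from Trem2 and 0.0135 from Tyrobp. The Trem2 to Tyrobp ratio of CPM stayed between 0.406 and 0.458.

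Beyond the members, 90 genes on 7 lists of microglial and macrophage function were followed, of which 62 reached the level for testing. None passed the threshold by genotype in limma, with or without the block, and 6 had an unadjusted p under 0.05 with the block, beside the 5.64% of all genes given above. Among 18 tested homeostatic markers 13 were higher and 5 lower in TCRb-/- (median 0.06, beside 0.00069 over all genes), 9 and 3 of them in both experiments. The highest was the integrin subunit Itgb5, at 49.7 and 46.0 CPM in TCRb-/- against 37.8 and 37.9 CPM in WT (difference 0.33, adjusted p = 0.848 with the block in limma). The lowest was the sialic acid receptor Cd33, at 1.91 and 1.60 against 2.79 and 2.1 CPM (-0.32).

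The lineage factors gave a median genotype difference of 0.02 over 7 genes, none of them of the same sign in both experiments. The PU.1 gene Spi1 had 3.21 and 4.05 CPM in TCRb-/- and 3.59 and 3.49 CPM in WT. The highest difference was that of Irf5 (0.19). Between the experiments Sall1, a factor that holds microglial identity, fell by 0.81 (adjusted p = 0.00809 in limma) and Ikzf1 fell by 0.66 (adjusted p = 0.0406 in limma). Removing the length trend ended the call of Ikzf1 (-0.46, adjusted p = 0.148 in limma) and not that of Sall1. Sall1 had 13.3 and 12.6 CPM in experiment 1 and 6.60 and 7.25 CPM in experiment 2, and Spi1, at a difference of 0.12, did not follow it.

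In the list of partners of the CSF1 and fractalkine receptors, 3 of 6 genes were higher and 3 lower in TCRb-/- (median -0.04), from Cbl (-0.21), the ubiquitin ligase that removes activated CSF1R, to Sdc1 (0.24). Ptprz1, a further receptor for interleukin 34, had 59.3 and 57.1 against 63.2 and 64.6 CPM (-0.13). Cx3cl1, the neuronal ligand of CX3CR1, was abundant, at 933 and 556 CPM in TCRb-/- and 791 and 633 CPM in WT, and like its receptor it was lower in experiment 2, by -0.53 (adjusted p = 0.0112 in limma) and by -0.46 with the length trend removed (0.0266).

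Of 11 genes that act with TREM2 and TYROBP, 7 were higher and 4 lower in TCRb-/- (median 0.15), from Blnk (-0.36) to Card9 (0.40). The kinase gene Syk had 1.63 and 2.20 against 1.41 and 1.83 CPM (0.15). Apoe, a TREM2 ligand made mainly by astrocytes, had 1780 and 2240 CPM in TCRb-/- and 1510 and 2040 CPM in WT (0.19, adjusted p = 0.848 with the block in limma) and was higher in experiment 2 by 0.38 (adjusted p = 0.0318), which was lost with the length trend removed (0.24, adjusted p = 0.143). The adaptor gene Blnk was lower in experiment 2 by -0.93 (adjusted p = 0.0282 in limma).

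Among 8 genes of purine sensing the genotype differences ran from P2ry6 (-0.32) to the ATP-gated channel gene P2rx4 (0.28, at 26.9 and 28.4 against 22.2 and 22.9 CPM), with a median of 0.01. The ectonucleotidase gene Nt5e and the adenosine receptor gene Adora1 were lower in experiment 2, by -0.98 and -0.36 (adjusted p = 0.0217 and 0.0219 in limma), and the second was lost with the length trend removed. Of 21 genes of reactive microglia, 13 were listed and 9 tested. Their genotype median was 0.07, from Lpl (-0.38) to Lgals3 (0.46), and between experiments Lpl and Axl were lower (-1.18 and -0.52) and Cd63 higher (0.52), of which Axl and Cd63 lost their call with the length trend removed (adjusted p = 0.0533 and 0.0691 in limma). The order of the libraries in Lpl was that of the summed striatal list, and in Cd63 that of the summed choroid plexus list. Which cells gave the values of these genes was not tested. Il1b, Tnf, Itgax, Clec7a and Cst7 were not among the listed rows. In the border macrophage list the differences ran from Cd163 (-0.67) to F13a1 (0.18). In all, 13 of the 62 genes were called between experiments, 10 of them lower in experiment 2, beside 23.7% and 14.7% of all genes, so that calls on these lists were about as common as elsewhere. With the length trend removed 6 of the 13 kept their call, beside 42.2% of all genes called between experiments.

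The marker lists of other cells and regions, taken as the setting of these values, gave the following extremes by genotype. In choroid plexus all 12 genes were on the TCRb-/- side in each experiment (median 0.61), from Clic6 (0.35) to Ttr (0.85), and Ttr was the only list gene past the threshold with the block (adjusted p = 0.0323 in limma; 1 without it). In striatum all 12 were lower (median -0.57), from Drd1 (-0.71) to Syndig1l (-0.29), but the median was 0.17 in experiment 1 and -1.26 in experiment 2. The range was from Neurod6 (-0.72) to Emx1 (0.03) in cortex and hippocampus, from Chat (-0.50) to Crhr2 (0.50) in septum and from Slc6a13 (-0.22) to Igf2 (0.44) in meningeal fibroblasts. It was from Map2 (-0.24) to Syp (0.20) in neurons, from Aldh1l1 (-0.13) to Gfap (0.30) in astrocytes, from Ermn (-0.10) to Mobp (0.15) in oligodendrocytes and from Esam (-0.31) to Slco1a4 (0.51) in endothelium.

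For each member the 3 genes of closest pattern over the 4 libraries were found among all genes tested, as a description only. Il34 lay closest to Ppp3ca, a neuronal calcineurin subunit (1220 and 720 CPM in TCRb-/-, 1240 and 944 in WT; distance 0.030), then to Cdk17 and Cpne5. Cx3cr1 lay closest to Zhx2, Dpy19l3 and Cdh13, P2ry12 to Gna11, Cyth2 and Zfp574, and Tmem119 to Ntn4, Lama5 and Nsmf. Csf1r lay closest to Gm3294, Usp40 and Lpcat1, and Csf1 to Pnp2, Armc5 and Gstm1. Trem2 lay closest to Gm27029, Cldn34c1 and Setd1a, Tyrobp to Hira, Mnt and Rps7, and Aif1 to B4gat1, Fam89a and Pstpip1. None of these nearest genes was another member or stood on any of the marker lists.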

How the data were processed

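The authors deposited 1 table of log2 values per library; solving them as log2 CPM, with offsets of 0.5 reads for the gene and 1 for the library, gave whole reads for all values within 0.001. The submitters' processing notes list HISAT2 2.1.0, SAMtools 1.3, HTSeq 0.9.1, R 4.0.5, limma 3.46.0 and the build mm10, without their settings. Of 15426 rows, 17 were ERCC spike-ins and were left out.

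From these reads CPM and log2(CPM + 1) were computed. The 13912 genes averaging 1 CPM or more were fitted with limma 3.58.1 in R 4.3.3 (empirical Bayes with a mean-variance trend, two-sided, Benjamini-Hochberg, threshold 0.05), by genotype alone and by experiment alone. Because the deposited unit was log2, no count model was run. The experiment as a block was the alternative for genotype: the labels give the replicate number as the experiment, deviations of the experiment 1 libraries from their genotype means correlated at 0.719 across genes, and the first principal component (76.7% of the variance) separated the experiments. Replicates differed beyond counting noise (chi-square per degree of freedom 33.3 in WT and 57.4 in TCRb-/-), and since nothing in the labels tells biological from technical spread beyond the pooling, p-values measure the spread between these libraries. Library totals and the floor of 3 reads set the precision: between 0.114 and 0.150 CPM.

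Other alternatives were pseudocounts of 0.1 and 5, the deposited values as they stand, quantile normalization, median-of-ratios scaling, no mean-variance trend, no filter on low genes, a filter at 10 CPM and leaving out each library. Added after the values were seen were a spline on transcript length (longest protein-coding transcript, GENCODE vM21, GRCm38, with lengths for 14985 of 15403 symbols) and levels on protein-coding lengths. The members and lists were chosen with earlier results of these data known. Named genes were the 9 members, fixed partners (Cx3cl1, Sall1, Spi1, Syk, Apoe and Ptprz1), the highest and lowest genotype difference in each list, any list gene past the threshold by genotype and the 3 genes of closest pattern per member; other genes given with values, among them Clec12a and those called between experiments, were chosen after their values were seen. Some genes that this rule names are not reported here. Promoters were taken from RefSeq (GRCm38.p6). Tables and figures were made with pandas 2.3.3, numpy 2.4.6, matplotlib 3.10.9 and scipy 1.17.1 in Python 3.11.15. The limma scripts were tested on simulated data.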

Additional observations from a re-analysis of the deposited data

Results flagged for a closer look

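The genotype difference had opposite signs in the 2 experiments for 6 members, with 1 library per genotype in each, so the change between experiments was not tested. On the log2(CPM + 1) scale, the TCRb-/- minus WT difference in experiment 2 less that in experiment 1 was -0.42 for Il34 (from 0.02 to -0.40), -0.30 for Trem2 (from 0.03 to -0.26), -0.25 for Csf1 (from 0.24 to -0.01), -0.23 for Tyrobp (from 0.04 to -0.18), -0.15 for Cx3cr1 (from 0.04 to -0.11) and -0.046 for P2ry12 (from 0.03 to -0.01). Opposite signs were found in 48.4% of all genes tested.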

How the results depend on the processing

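No member passed the threshold by genotype under any alternative run, the fit with the experiment as a replicate block included; of the other named genes the block added the call of Ttr alone. The count of genes called by genotype was 0 in the reported fit, 2 when the replicate block entered the fit, 11 when the length trend was removed as well, and between 0 and 47 when 1 library was left out (47 without TCRb-/- replicate 1, 1 without TCRb-/- replicate 2). Between experiments, 3292 genes were called (1245 higher, 2047 lower); 629 without a mean-variance trend, 1714 with the length trend removed, and between 1406 and 3390 when 1 library was left out, with 1406, 1823 and 1637 without TCRb-/- replicate 1, TCRb-/- replicate 2 and WT replicate 1. Quantile normalization gave 1634 higher and 1593 lower, and the length trend removed 862 higher and 852 lower. Signs turned with the length trend removed for P2ry12 by genotype (-0.00764) and for Trem2, Tyrobp and Aif1 between experiments (-0.0788, -0.226 and -0.154), and with quantile normalization for Spi1 by genotype (-0.00376), none of them past the threshold; the cause was not tested.

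When 1 library was left out, the sign turned for these genotype differences, given as lowest to highest: Cx3cr1 -0.28 to 0.215, P2ry12 -0.0496 to 0.0719, Il34 -0.586 to 0.212, Trem2 -0.242 to 0.00957, Irf5 -0.16 to 0.539, Blnk -0.999 to 0.279, Lpl -1.19 to 0.427, Cd163 -1.41 to 0.0693, Mobp -0.129 to 0.429, Ermn -0.217 to 0.0225, Esam -0.661 to 0.0369, Ttr -0.158 to 1.86, Syndig1l -1.09 to 0.516, Drd1 -2.04 to 0.613, Emx1 -0.255 to 0.319, Neurod6 -2.37 to 0.925, Igf2 -0.138 to 1.02, Slc6a13 -0.716 to 0.271, Cx3cl1 -0.349 to 0.397, Sall1 -0.475 to 0.436, Spi1 -0.107 to 0.155, Apoe -0.026 to 0.406. Of 46 genotype differences of named genes 24 kept their sign, and 18 of these moved by over 1.5 times, among them Tmem119 (0.0461 to 0.311), Csf1r (0.0846 to 0.339), Csf1 (0.0267 to 0.204), Tyrobp (-0.133 to -0.0043) and Lgals3 (0.0438 to 0.881). Between experiments the sign turned for Tmem119 -0.28 to 0.0456, Csf1 -0.068 to 0.172, Trem2 -0.0281 to 0.236, Tyrobp -0.0754 to 0.107, Aif1 -0.0394 to 0.152. None of these was past the threshold in the reported fit. Il34 and Cx3cr1 between experiments ranged from -0.785 to -0.387 and from -0.473 to -0.364.

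Levels per length moved by more than 1 SD on merged exons for P2ry12 (6.53), Csf1r (4.88), Csf1 (3.84), Tyrobp (15.8) and Aif1 (3.30), and for Trem2 on its protein-coding transcript (4.10). Aif1, Trem2 and other genes under 10 CPM could not be fitted under that filter. With 2 libraries per group, a left-out library leaves 1 whose spread is assumed to equal that of the others.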
